A study of Mus musculus with 246 samples.

Results

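DNA methylation is written, removed and read by the products of 9 genes that were followed here across 6 brain regions of the mouse. They are the DNA methyltransferases Dnmt1, Dnmt3a and Dnmt3b, the dioxygenases Tet1, Tet2 and Tet3, and the binding proteins Mbd1, Mbd2 and Uhrf1. They were chosen by gene symbol and are 9 of the 56691 genes in the table. All 9 passed the filter on low counts, and each had a count above 0 in every library.

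Methylated cytosines followed by guanine (CpG) are kept through cell division by Dnmt1, which Uhrf1 brings to the hemimethylated sites left behind by the replication fork. Dnmt3a and Dnmt3b place new methyl groups, in neurons also outside CpG sites. The TET enzymes oxidise 5-methylcytosine to 5-hydroxymethylcytosine, which is abundant in the brain, and further oxidation lets base excision repair put back an unmodified cytosine. Mbd1 and Mbd2 bind methylated CpG through a methyl-CpG-binding domain, and Mbd2 brings the NuRD corepressor complex with it.

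RNA was sequenced from punches of 2 cortical areas, the medial prefrontal (mPFC) and the anterior cingulate (ACC), and of the ventral hippocampus (vHipp), the dorsomedial thalamus (DMT), the shell of the nucleus accumbens (Nacc) and the basolateral nuclei of the amygdala (BLA) of 41 adult male outbred CD1 mice. Ctrl_Veh mice were raised under standard bedding by dams given an empty gel, ELA_Veh mice under limited bedding and nesting for a week soon after birth (early life adversity, ELA) by dams given the same gel, and ELA_SAFit2 mice under the same adversity by dams given a gel with SAFit2, an inhibitor of the glucocorticoid receptor's co-chaperone FKBP51. The drug was injected into the dam once and reached the pups through her milk, so the pups' dose was not set directly. No Ctrl mice with SAFit2 were analysed here. Brains were taken without a preceding interaction (7 mice per condition) or after 10 minutes with an unfamiliar mouse (6 Ctrl_Veh, 7 ELA_Veh and 7 ELA_SAFit2). Because each library is bulk tissue, fewer cells of a type and less RNA per cell cannot be told apart in any value below.

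Libraries held 20804219 to 43351397 estimated counts. In the Nacc 12 libraries matched another mouse than their label's in genes that differ between individuals, and they were kept under their labels. In 4 libraries, 2 of them from the ACC, 1 from the DMT and 1 from the vHipp, genes with over 10 kb of exon sequence were low relative to genes under 3 kb. The index is the median log2 deviation of the long genes from their region's medians, minus that of the short genes. It lay between -0.938 and -0.216 in the 4, against -0.1205 to 0.1086 in the other 242. Markers of olfactory bulb neurons summed to over 100 CPM (counts scaled to library size, with TMM factors) in 8 mPFC libraries, 1 ACC library and 1 Nacc library. The choroid plexus markers summed to between 7.55 and 5561.4 CPM in the BLA punches and to at most 11.7 in the mPFC. Region markers were highest in their own region for the thalamus, striatum and cortex lists, whereas the 3 amygdala markers, which cortical neurons also express, had a median log2 difference from the other regions of 2.58 in the ACC and 0.0058 in the BLA. Striatal markers summed to 317, 832 and 2160 CPM (lowest, median and highest) in the BLA and to 761, 2154 and 2878 in the Nacc. Regional calls were also made without the mismatched, the low and the olfactory libraries. No BLA library was left out for its choroid plexus or striatal markers.

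The genes that handle CpG methylation have CpG sites of their own before their start sites. RefSeq start sites on GRCm38.p6 were used for 7 of the 9 genes, those of Mbd1 and Mbd2 not being used here, and 3 windows of 250 bases are shown here. The Uhrf1 window (chr17:56304063-56304312, plus strand, second start site) has the only match among the Uhrf1 windows to an E2F-type motif of dividing cells, in capitals. The Tet2 window (chr3:133544391-133544640, minus strand) and the Dnmt3b window (chr2:153649199-153649448, plus strand) have their CpG sites in capitals, because they belong to an abundant and to the least abundant of the genes.
Uhrf1: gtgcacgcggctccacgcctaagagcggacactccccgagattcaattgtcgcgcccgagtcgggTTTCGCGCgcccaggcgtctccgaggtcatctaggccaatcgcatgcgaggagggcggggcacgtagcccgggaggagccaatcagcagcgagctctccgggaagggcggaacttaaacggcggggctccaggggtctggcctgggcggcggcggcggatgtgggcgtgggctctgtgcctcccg
Tet2: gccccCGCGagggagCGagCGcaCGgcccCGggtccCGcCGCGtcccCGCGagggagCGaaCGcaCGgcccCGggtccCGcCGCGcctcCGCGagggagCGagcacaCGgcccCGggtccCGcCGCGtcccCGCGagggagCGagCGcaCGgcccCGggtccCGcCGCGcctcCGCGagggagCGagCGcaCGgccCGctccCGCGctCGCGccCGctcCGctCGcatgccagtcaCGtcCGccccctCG
Dnmt3b: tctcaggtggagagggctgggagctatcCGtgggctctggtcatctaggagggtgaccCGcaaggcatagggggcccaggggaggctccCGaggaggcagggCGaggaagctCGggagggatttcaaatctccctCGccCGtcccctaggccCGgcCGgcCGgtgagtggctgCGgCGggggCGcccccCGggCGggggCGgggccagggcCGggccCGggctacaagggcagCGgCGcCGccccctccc

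The Tet2 window holds 51 CpG sites, a count at the 99.9 percentile of the 32851 windows searched, which have a median of 6. The Dnmt3b window holds 21 and the Uhrf1 window 30. Among the other genes the windows held 15 CpG sites for Tet1, 17 for Tet3, 2 to 26 for the 3 start sites of Dnmt1 and 15 to 40 for the 3 of Dnmt3a. The motif searched was TTTCCCGC, TTTCGCGC, TTTGCCGC or TTTGGCGC on either strand, and 1.86% of all windows hold it. The windows of Mki67 and Top2a, markers of dividing cells, held no match. It was found in 2 of the 7 genes, in Uhrf1 with its first base 185 bases before the start (position -185) and in a Dnmt1 window (chr9:20952624-20952873, minus strand, 26 CpG sites) that lies over an exon of another Dnmt1 transcript. The 1.86% is a share of windows, whereas the 7 genes have up to 3 windows each, so 2 of 7 cannot be set against it. A match is a description of the letters and not a binding site.

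Per kilobase of merged exons, the genes fell into 3 tiers of level. Mbd2 (10.1 CPM per kilobase, mean of all libraries), Dnmt1 (9.36), Dnmt3a (8.53) and Mbd1 (8.21) were the most abundant. Tet3 (4.79) and Tet2 (3.98) followed, with Tet1 at 1.27. Uhrf1 (0.249) and Dnmt3b (0.187) were lowest, so the maintenance enzyme Dnmt1 and its recruiter Uhrf1 were in different tiers. Dividing by the longest coding transcript moved Dnmt3a (14.6) above Dnmt1 (11.8) and left Uhrf1 (0.295) and Dnmt3b (0.221) lowest.

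**Figure D1:**
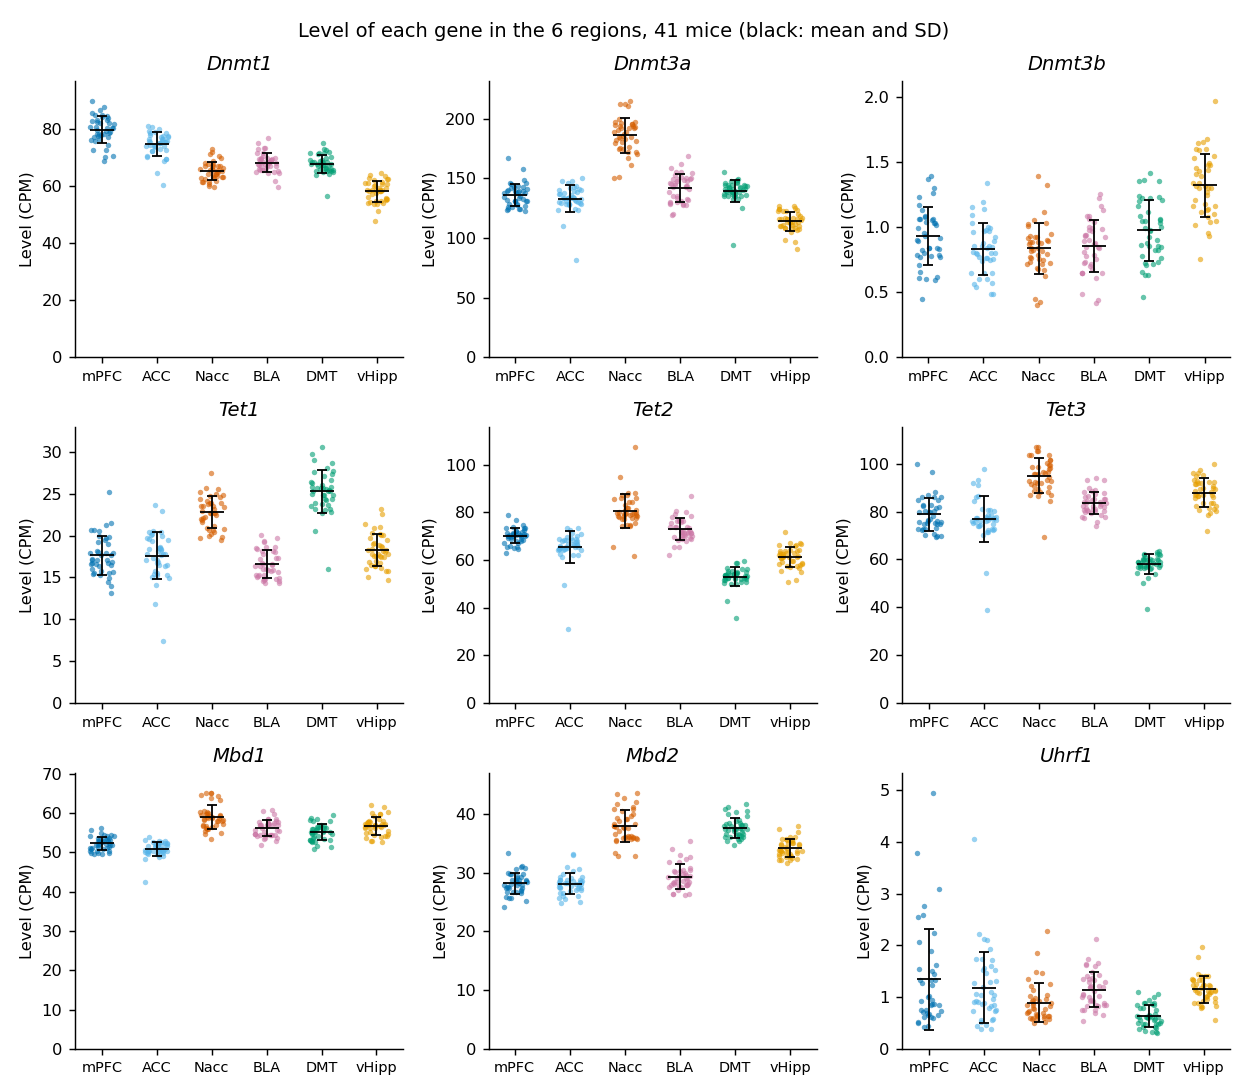
Level of each gene in each library (CPM) by region, with 41 mice per region. Uhrf1 and Dnmt3b lie near 1 CPM in every region, with single mPFC and ACC libraries of Uhrf1 above 4.

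The low genes were close to the limit of counting. Dnmt3b had a median of 22 to 33 counts per library in the regions, and its coefficient of variation of 18.5% to 23.9% was near the 17.4% to 21.3% that counting error alone gives at such counts. Uhrf1 had a median of 17 to 33 counts, and its coefficient of variation reached 72.7% in the mPFC where counting error gives 20%. For the other 7 genes the coefficient of variation within a region lay between 3.3% (Mbd1, mPFC) and 16.1% (Tet1, ACC).

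To ask where each gene was highest, every region was compared with the mean of the other 5 within the same mice. The test was edgeR's quasi-likelihood test with the mouse as a block, adjusted over the 17381 genes tested. Values are CPM given as lowest, median and highest of 41 libraries, and differences are log2 fold changes with their SE. With 41 mice small differences pass this test, as 35.3% to 42.7% of all genes do as higher in any region. Neighbours in the order of levels are called within the spread where their mean paired difference was under the SD of the paired differences. This is a description and not a test, and such a difference can have the same sign in most mice.

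Dnmt1, the maintenance methyltransferase, was highest in the mPFC (68.99, 80.4 and 89.7 CPM) and lowest in the vHipp (47.7, 58.5 and 64.5 CPM). These ranges did not overlap. The mPFC was its highest region in 36 of 41 mice and the vHipp its lowest in 37. The difference from the other regions was 0.26 ± 0.012 in the mPFC (adjusted p = 6.46e-53) and -0.29 ± 0.013 in the vHipp (adjusted p = 4.66e-57). ACC followed the mPFC by less than the spread of the paired differences, though the mPFC was higher in 37 of 41 mice. BLA, DMT and Nacc lay together with medians of 65.2 to 68.3 CPM.

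Dnmt3a, the main de novo enzyme of neurons, was highest in the Nacc (150, 188 and 215 CPM). It was the highest region in 40 of 41 mice, with a difference of 0.49 ± 0.017 (adjusted p = 1.42e-70). In the vHipp (90.9, 114 and 127 CPM) it was 0.36 lower on the log2 scale (-0.36 ± 0.019, adjusted p = 1.4e-46), and the Nacc and vHipp ranges did not overlap. The 4 regions between, with medians of 133 to 144 CPM, did not differ from their neighbours in the order beyond the spread. Per kilobase, Dnmt3a exceeded Dnmt1 in every Nacc library (ratio 1.03, 1.26 and 1.53), whereas the mPFC had a median ratio of 0.749 and a highest of 0.936. The level of this ratio depends on the length used. By the longest coding transcript it was 1.41, 1.73 and 2.10 in the Nacc, and medians in the other regions lay between 1.02 (mPFC) and 1.27 (BLA). The Nacc had the highest ratio of the 6 regions in 41 of 41 mice, and the mPFC the lowest in 26. Over the 29 mice whose Nacc library matched its label, the Nacc was highest in 29 for the ratio and in 29 for Dnmt3a itself. The Nacc punches varied in the summed striatal markers (761 to 2878 CPM) and in those of cortical excitatory neurons (27.7 to 1258 CPM), and Dnmt3a had an r of 0.615 with the striatal sum (Spearman rho 0.674, n = 41 libraries). The part of these in its level was not tested.

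Dnmt3b, the de novo enzyme of the early embryo, was the exception among the writers, with its highest level in the vHipp (0.756, 1.32 and 1.963 CPM). The vHipp was highest in 31 of 41 mice, and the difference was 0.58 ± 0.054 (adjusted p = 6.5e-21). Medians in the other 5 regions lay between 0.81 (ACC) and 0.979 CPM (DMT), and none of these differed from its neighbour in the order beyond the spread. Its range overlapped between the vHipp and every other region. Dnmt3b made up a median of 1.73% of the summed level per kilobase of the 3 methyltransferases in the vHipp and 0.80% to 1.10% elsewhere.

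The TET enzymes did not share a regional order. Tet3 was highest in the Nacc (69.4, 95.6 and 106.9 CPM, highest in 29 of 41 mice, 0.32 ± 0.019, adjusted p = 6.81e-39). It was lowest in the DMT (39.3, 58.6 and 63.6 CPM, lowest in 39 mice), where it was 0.54 lower on the log2 scale (-0.54 ± 0.021, adjusted p = 3.68e-66). The DMT and Nacc ranges of Tet3 did not overlap. Tet2, which lost its CXXC DNA-binding domain to a neighbouring gene, had the same ends of the order. It was highest in the Nacc (61.5, 79.6 and 107.2 CPM, highest in 35 mice, 0.33 ± 0.019, adjusted p = 1.66e-40) and lowest in the DMT (35.5, 53.4 and 59.7 CPM, lowest in 37, -0.40 ± 0.020, adjusted p = 8.15e-48).

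Tet1 went the other way in the thalamus. It was highest in the DMT (16.0, 25.3 and 30.5 CPM), which was the highest region in 34 of 41 mice, with a difference of 0.45 ± 0.027 (adjusted p = 3.16e-40). The Nacc came next (19.5, 22.7 and 27.5 CPM, 0.28 ± 0.027, adjusted p = 1.09e-19). The gap between DMT and Nacc was within the spread of the paired differences, with the DMT higher in 35 of 41 mice. BLA was lowest (14.3, 16.3 and 20.1 CPM, lowest in 21 mice, -0.28 ± 0.029, adjusted p = 6.05e-18).

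Taken within each library, the balance of the TET genes separated the thalamus completely. The ratio of Tet1 to Tet3 per kilobase was 0.403, 0.470 and 0.535 in the DMT, and at most 0.325 in any library of another region. The DMT had the highest ratio in 41 of 41 mice. Tet1 made up 18.1% to 21.9% of the summed TET level in the DMT, with a median of 19.7%, and medians of 10.2% to 12.3% elsewhere, with no library above 14.8%. The summed TET level itself had its lowest median in the DMT (8.30 CPM per kilobase) and its highest in the Nacc (11.9). In the vHipp the ratio of Tet2 to Tet3 (0.572, 0.698 and 0.838) was the lowest of the regions in 37 of 41 mice.

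**Figure D2:**
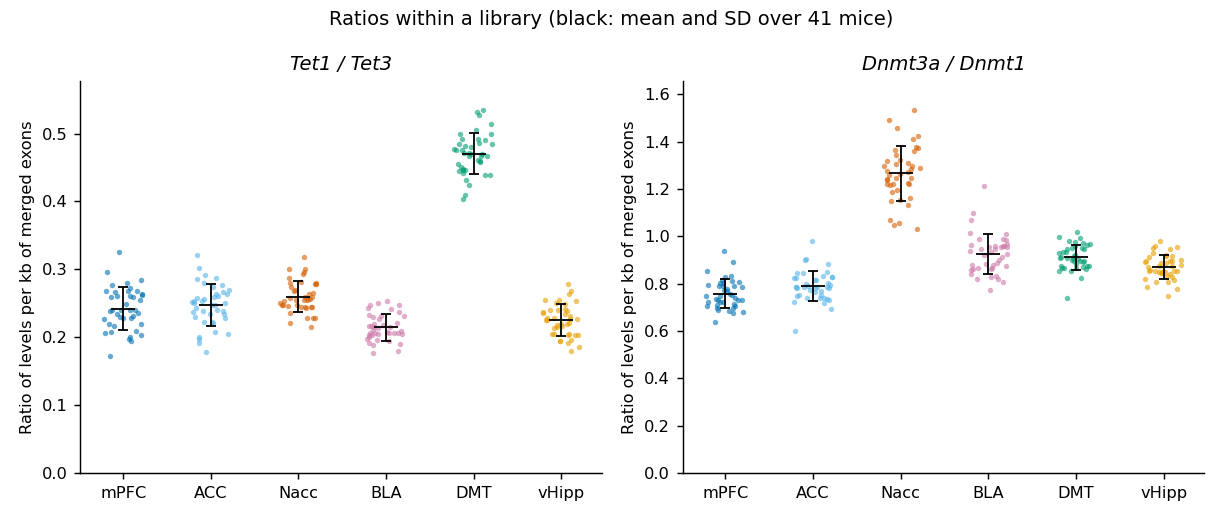
Ratios of levels per kilobase within each library, by region, with 41 mice per region. The 41 DMT libraries lie between 0.403 and 0.535 for Tet1 over Tet3, above every library of the other regions, and the Nacc has the highest median for Dnmt3a over Dnmt1 (1.26 by merged exons).

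Among the readers, Mbd1 varied least. It was highest in the Nacc (53.4, 58.7 and 65.1 CPM, highest in 28 of 41 mice, 0.12 ± 0.009, adjusted p = 1.16e-29) and lowest in the ACC (42.5, 50.8 and 53.8 CPM, lowest in 30, -0.13 ± 0.009, adjusted p = 1.28e-32). Mbd2, the NuRD-binding reader, had a wider range. It was highest in the Nacc (32.8, 37.8 and 43.6 CPM, 0.28 ± 0.015, adjusted p = 1.66e-45) and in the DMT (34.8, 37.5 and 41.7 CPM, 0.27 ± 0.015, adjusted p = 1.31e-43), each the highest region in 20 mice, and in 12 and 16 of the 29 mice with a matching Nacc library. In the cortex it was lower, at 24.2, 28.3 and 33.4 CPM in the mPFC (-0.23 ± 0.015, adjusted p = 1.87e-34) and 24.8, 28.1 and 33.2 CPM in the ACC (-0.24 ± 0.015, adjusted p = 1.21e-35). The cortical ranges did not overlap with that of the DMT. The ratio of Mbd2 to Mbd1 per kilobase was accordingly highest in the DMT, in 29 of 41 mice, with a median of 1.40 against 1.079 in the BLA.

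Uhrf1 was lowest in the DMT (0.305, 0.619 and 1.10 CPM), where it was 0.81 lower on the log2 scale (-0.81 ± 0.11, adjusted p = 3.38e-12), and the DMT was its lowest region in 21 of 41 mice. It was called higher in the mPFC (0.424, 0.942 and 4.94 CPM, 0.37 ± 0.097, adjusted p = 0.000273), in 24 of 41 mice above the mean of the other regions. By medians the mPFC lay below the ACC (1.03 CPM), BLA (1.12) and vHipp (1.13), and its mean of 1.34 CPM was the highest. The highest mPFC levels of Uhrf1 were in libraries early in the order of library names, and the part of this order was not tested. The calls for Uhrf1 in the BLA (0.23, adjusted p = 0.0266), the vHipp (0.225, adjusted p = 0.031) and the Nacc (-0.21, adjusted p = 0.0486) were narrow. With no filter on low counts or on gene type all 3 were lost. Those in the BLA and vHipp were also lost without the mouse block or without the libraries high in olfactory bulb markers. With the 12 mismatched Nacc libraries left out the Nacc difference was -0.076 and the vHipp difference 0.20, and neither passed the test.

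**Figure D3:**
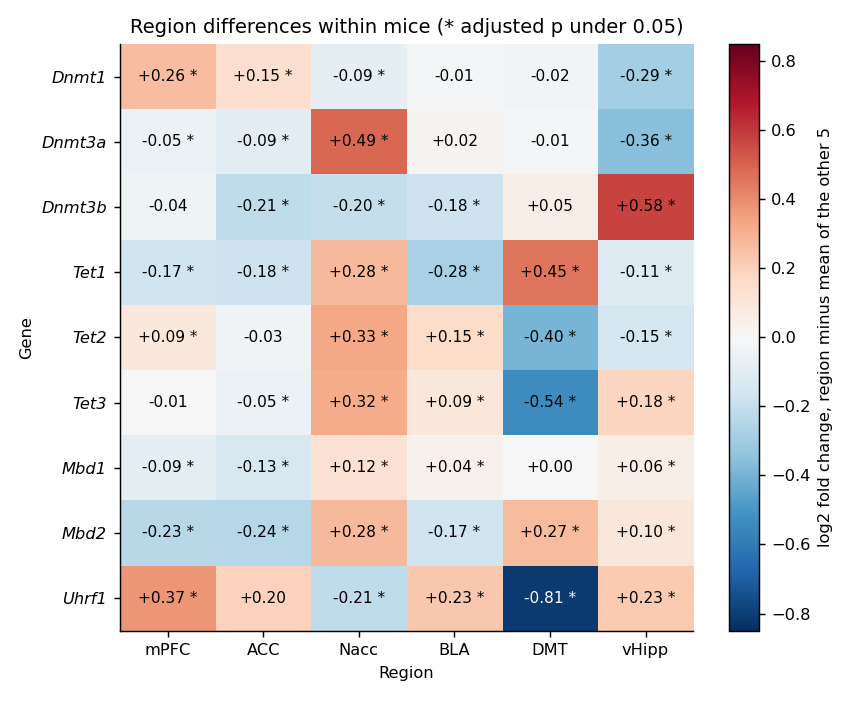
Log2 fold change of each gene in each region against the mean of the other 5 regions, with an asterisk where the adjusted p was under 0.05. Tet3 and Tet1 have opposite signs in the DMT (-0.54 and 0.45), and Dnmt3b stands apart in the vHipp (0.58).

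The counts of calls are set beside those of all genes. In the mPFC 3 of the 9 genes were higher and 4 lower, against 36.8% and 38.2% of all genes tested. In the ACC 1 was higher, Dnmt1 (0.15, adjusted p = 1.12e-24), and 6 were lower, against 35.3% and 40.6%. In the Nacc 6 were higher and 3 lower, against 39.5% and 38.6%. The BLA had 4 higher and 3 lower, against 39.2% and 35.8%. The DMT had 2 higher and 3 lower, against 42.7% and 43.7%. In the vHipp 5 were higher and 4 lower, against 38.3% and 41%. A call with a log2 fold change beyond 0.5 was made for Tet3 and Uhrf1 in the DMT and Dnmt3b in the vHipp, against 35.8% and 24.3% of all genes, and for none of the 9 in the mPFC (19.4% of all genes), ACC (19.4%), Nacc (21.5%) or BLA (18.2%). The median difference of the 9 genes was 0.28 in the Nacc, where that of all genes was 0.0022, and between -0.093 and 0.055 in the other regions.

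Leaving out the 4 libraries low in long genes, or the 10 high in olfactory bulb markers, moved no count of calls by more than 1.5 times. Without the 4, Tet3 in the ACC was no longer called (from -0.053 to -0.026). In each of the 4, Dnmt3a, Tet2 and Tet3 lay below the range of the other libraries of the region, and Dnmt3b and Mbd2 inside it. Dnmt3a and the TET genes, with 15457 (Tet1) to 16870 (Tet2) bases of merged exons, are among the long genes by which these libraries were picked. Their low values there are therefore no separate observation. In the ACC library of Ctrl_Veh mouse 89 (social interaction) Tet2 was at 30.9 CPM, where 39 other ACC libraries lay between 61.2 and 73.5 CPM. Tet3 was at 38.8 CPM (70.1 to 97.6 in the others), Tet1 at 7.44 (14.1 to 23.7) and Dnmt3a at 81.9 (123 to 150), whereas Mbd2, with the shortest exon sequence of the 9 genes, was inside the range at 33.04 CPM (24.8 to 33.2).

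Uhrf1 rose and fell with markers of dividing cells from library to library. Its log2 level had a Pearson r with the summed level of 8 such markers, among them Mki67 and Top2a, of 0.924 in the mPFC (Spearman rho 0.856, n = 41 libraries), 0.860 in the ACC, 0.829 (Nacc), 0.668 (BLA) and 0.475 (DMT). In the vHipp r was 0.057. The sum was highest there (28.8, 39.001 and 52.4 CPM) through 1 gene, the replication helicase subunit Mcm6, with a median of 22.3 CPM in the vHipp against 7.28 in the ACC and 8.31 in the mPFC. Mcm2 (5.43 CPM) and Mcm3 (3.09) also had their highest medians in the vHipp. Mki67 (1.79 CPM), Top2a (1.53) and Ccnb1 (0.392) had lower medians in the vHipp than in the ACC (2.42, 1.70 and 2.29). So did Mcm5 (3.85 against 5.47) and Cdk1 (0.276 against 0.303). The vHipp medians of Mki67 and Top2a were above those of the Nacc (1.37 and 0.953), BLA (1.16 and 0.906) and DMT (0.588 and 0.439). Without Mcm6, a choice made after the data were seen, r was 0.934 (mPFC), 0.877 (ACC), 0.827 (Nacc), 0.664 (BLA), 0.384 (DMT) and 0.243 (vHipp). The other 7 summed to 12.8, 16.6 and 20.5 CPM in the vHipp. Leaving out the 2 libraries farthest from the median sum of all 8 gave an r of 0.895 in the mPFC and 0.001 in the vHipp. These are descriptions over libraries that share depth and dissection. In the mPFC the highest Uhrf1 levels and marker sums were in libraries early in the order of library names. Up to the library of mouse 33 in this order, all but those of mice 89 and 81 (0.942 and 0.590 CPM) had Uhrf1 above the mPFC median of 0.942 CPM. Most later libraries were below that median, and the highest of them was that of mouse 41 (1.88 CPM). The part of this order in r was not tested. As background, Uhrf1 is transcribed mainly in cells that enter S phase. Dnmt1, its partner, had an r of 0.109 in the mPFC and 0.444 in the vHipp.

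The library with the highest marker sum was the highest in Uhrf1 in the mPFC, the ACC and the Nacc, and not in the BLA, DMT or vHipp. The mPFC library of ELA_Veh mouse 61 (social interaction) had Uhrf1 at 4.94 CPM and a marker sum of 53.4 CPM, and that of an ELA_SAFit2 mouse without interaction had 3.79 and 52.4 CPM. The ACC library of ELA_Veh mouse 37 (no interaction) had 4.06 and 51.7 CPM. The vHipp library of Ctrl_Veh mouse 33 (no interaction) had Uhrf1 at 1.32 CPM and a sum of 52.4 CPM, of which Mcm6 was 32.6 CPM. Without Mcm6 its sum was 19.8 CPM, against 44.9 CPM in the mPFC library of mouse 61. The olfactory bulb markers summed to 26.2 CPM in the library of mouse 61 and 23.6 CPM in that of the ELA_SAFit2 mouse, near the mPFC median of 23.6 CPM, so these were not the libraries over 100 CPM.

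**Figure D4:**
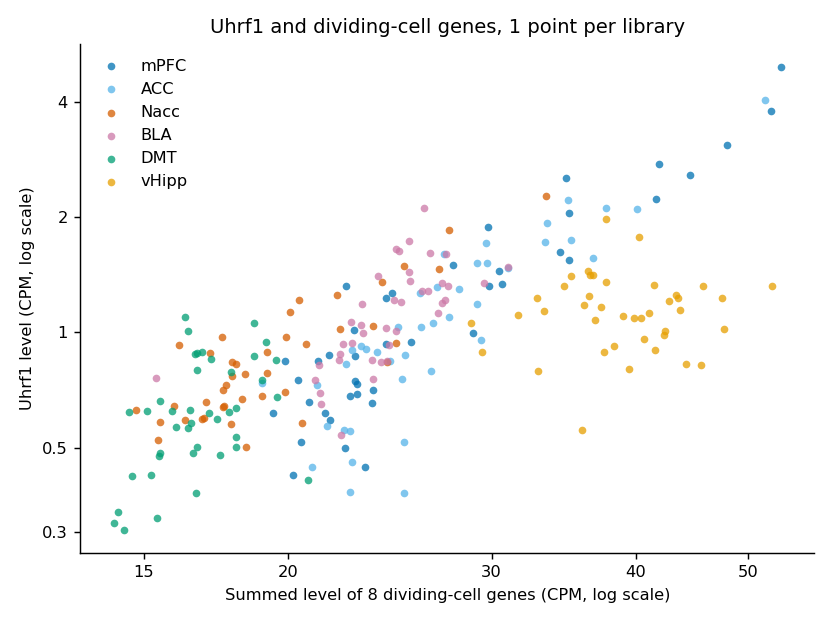
Uhrf1 (CPM, log axis) against the summed level of 8 markers of dividing cells (CPM, log axis) in each library, by region, 41 libraries per region. The mPFC libraries form a line up to 4.94 CPM of Uhrf1, and the vHipp libraries, whose sums are mostly Mcm6 (median 22.3 CPM), lie to the right without such a line.

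The other genes of the pathway were counted over lists that were chosen by function, with earlier results of these data known. Corepressors bound by the MBD proteins (16 genes, among them subunits of the NuRD and NCoR complexes) were higher in the vHipp for 15 genes and lower for 1, with a median of 0.30 where that of all genes was -0.012. Of all genes 38.3% were higher and 41% lower in the vHipp. In the DMT 4 of the 16 were higher and 12 lower (42.7% and 43.7% of all genes), with a median of -0.17. The histone deacetylase Hdac1 was at 0.80 ± 0.018 in the vHipp (adjusted p = 3.01e-107), and the NuRD subunit Gatad2a at 0.89 ± 0.017 in the DMT (adjusted p = 4.9e-117), 1 of the 4 that were higher there.

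Partners of the TET enzymes, among them the CXXC proteins and the isocitrate dehydrogenases that make their cosubstrate, were higher in the DMT for 7 of 8 genes and lower for 0, with a median of 0.090, where 42.7% and 43.7% of all genes were and the median of all was -0.0085. Cxxc4, the neighbour that carries the CXXC domain once joined to Tet2, was at 0.44 ± 0.027 in the DMT (adjusted p = 2.49e-39), where Tet2 was lowest. In the vHipp it was at -1.29 ± 0.031 (adjusted p = 4.9e-100). Mitochondrial Idh2 was at 0.56 ± 0.024 in the DMT (adjusted p = 2.89e-59).

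The shares of all genes called, given above, lay between 35.3% and 43.7% in each direction, and several of the following counts are near them. The 9 other methyl-CpG readers were split in every region but the ACC, where 0 were higher and 6 lower (35.3% and 40.6% of all genes). Zbtb4, a zinc finger reader, was at 0.85 ± 0.014 in the DMT (adjusted p = 1.86e-128), and Mbd6 at 0.46 ± 0.021 in the Nacc (adjusted p = 1.14e-53). Of the 10 genes of demethylation by base excision, 7 were higher and 3 lower in the Nacc (39.5% and 38.6% of all genes) and 4 and 6 in the DMT (42.7% and 43.7%). The uracil glycosylase Ung was at 0.79 ± 0.042 in the DMT (adjusted p = 2.1e-46) and -0.84 ± 0.049 in the vHipp (adjusted p = 1.71e-40). Of the 8 partners of maintenance and de novo methylation, 2 were higher and 6 lower in the DMT. The replication clamp Pcna was at -0.27 ± 0.017 there (adjusted p = 1.91e-37) and at 0.24 ± 0.016 in the mPFC (adjusted p = 4.19e-33). Of the 8 genes of methyl donor synthesis, 3 were higher and 5 lower in the DMT and 4 and 4 in the vHipp, where the folate enzyme Shmt1 was at 1.73 ± 0.050 (adjusted p = 6.09e-86).

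Cell type markers moved between the regions too. In the DMT the 5 oligodendrocyte markers had a median difference of 1.13, with 5 of 5 higher and sums between 4828 and 7746 CPM, and the 8 markers of dividing cells had a median of -0.79, with 8 of 8 lower. Of all genes 42.7% were higher and 43.7% lower in the DMT. In the mPFC the oligodendrocyte markers had a median of -1.12, with 5 of 5 lower (38.2% of all genes) and sums between 723 and 3548 CPM. The part of such markers in the regional differences of the 9 genes was not tested.

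The genes with the pattern most like that of each member over all libraries were Kcnf1 for Dnmt1 (Pearson r of log2 CPM 0.869), Plekha5 for Dnmt3a (0.889), Cecr2 for Dnmt3b (0.618), Pou2f1 for Tet1 (0.838), Trank1 for Tet2 (0.877), Trrap for Tet3 (0.904), Mbtps1 for Mbd1 (0.825), Scrt2 for Mbd2 (0.866) and Cd24a for Uhrf1 (0.632). These values mostly follow the 6 regions. After the mean of each region was taken away, the most alike were Kmt2a for Tet2 (0.779), Spen for Tet3 (0.765), Zfp609 for Dnmt3a (0.736), Mdm4 for Tet1 (0.731), Chd8 for Dnmt1 (0.630), Ybx1 for Mbd2 (0.607), Lmnb1 for Uhrf1 (0.603), Pnisr for Mbd1 (0.558) and Sox4 for Dnmt3b (0.316). Without the 4 libraries low in long genes the value was 0.522 for Kmt2a and Tet2 and 0.568 for Spen and Tet3, and 0.605 for Lmnb1 and Uhrf1. The most alike gene was then another for 4 members, Kmt2e for Tet2 (0.528), Mbtd1 for Dnmt3a (0.662), Cecr2 for Dnmt3b (0.341) and Zfp932 for Mbd1 (0.539). Among the members themselves the closest pair within regions was Dnmt3a and Tet3, at 0.676 over all libraries and 0.508 over 242. The pair of Dnmt1 and Mbd2 had the most negative value, -0.317 and -0.286.

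To see whether early adversity or SAFit2 left a trace in these genes, the 3 conditions were compared in each region, over both sets of mice, within each set, and as the difference between the sets. Comparisons with the same condition share its mice. None of the 9 genes passed edgeR's test in any of the 72 regional comparisons. Over both sets 1 of 162 member tests had an unadjusted p under 0.05, without interaction 4 of 162, with interaction 1 of 162, and for the difference between sets 5 of 162. Of all genes 4.7%, 4.3%, 4.5% and 4.0% had such a p, in this order. DESeq2 also called 0 members in the 72. In the Nacc 12 libraries matched another mouse than their label's, so the condition and set given for them may be wrong. Without them no member was called in the Nacc either. Genes were seldom called at all. Of all gene tests 0.00421% were called over both sets, 0.000702% without interaction, 0.000351% with it and 0.00772% for the difference, and 69 of 84 comparisons called no gene.

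With the 6 regions of a mouse summed by label, none of the 9 was called in 12 comparisons, where 0.00384% of all gene tests were. These sums hold the 12 mismatched Nacc libraries under their labels, so for those mice the sum may mix 2 animals. With the 5 regions other than the Nacc summed, none of the 9 was called either. DESeq2 called 0, and unadjusted p was under 0.05 in 0 of 27 member tests over both sets, 0 without interaction, 2 with it and 2 for the difference. The intervals were narrow for the abundant genes. Tet3 differed by 0.032 between ELA_Veh and Ctrl_Veh (95% interval -0.016 to 0.080), Dnmt3a by 0.015 (-0.026 to 0.057), Dnmt1 by -0.0083 (-0.042 to 0.025), Tet1 by 0.032 (-0.025 to 0.088), Tet2 by 0.015 (-0.027 to 0.058), Mbd1 by 0.0059 (-0.019 to 0.030) and Mbd2 by 0.0005 (-0.029 to 0.030). The largest regional difference of each of these 7 genes lies outside its interval. For the low genes the intervals were wider, with Dnmt3b at -0.0019 (-0.115 to 0.112) and Uhrf1 at 0.15 (-0.111 to 0.414).

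ELA_SAFit2 differed from ELA_Veh by -0.018 for Tet3 (-0.065 to 0.029), -0.020 for Tet1 (-0.075 to 0.035), -0.0077 for Dnmt3a (-0.048 to 0.033) and 0.0013 for Dnmt1 (-0.032 to 0.034). The groups overlapped in every member. Dnmt3a, as a mean of the 6 regions, lay at 136, 141 and 147 CPM in Ctrl_Veh mice without interaction, 127, 145 and 147 in ELA_Veh and 140, 144 and 152 in ELA_SAFit2. Dnmt1 lay at 65.1, 70.3 and 72.6 CPM, 66.1, 69.9 and 71.6 and 67.8, 69.7 and 71.2 in the same order. Within regions and over both sets the widest difference of any member was that of Uhrf1 in the mPFC (-0.43 ± 0.34 for ELA_SAFit2 against ELA_Veh), and the smallest adjusted p was 0.756, for Dnmt3b in the DMT. Over these 162 tests the median absolute log2 fold change was 0.029 for the members and 0.039 for all genes.

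**Figure D5:**
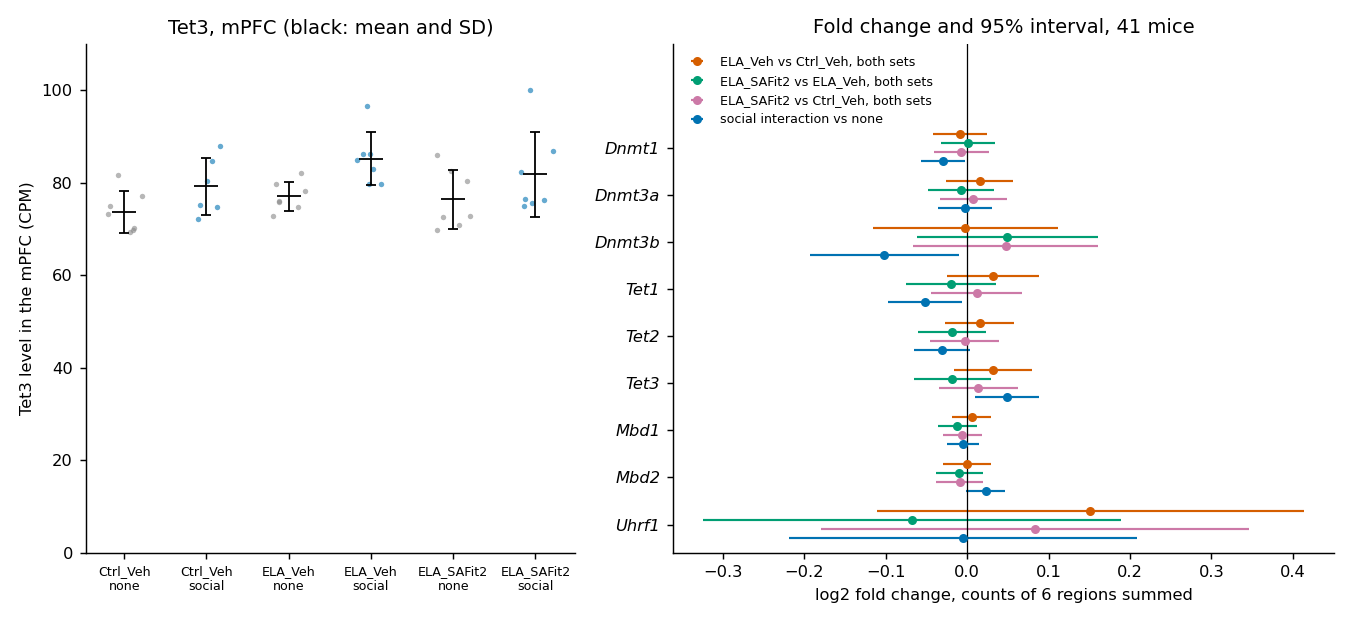
Left, Tet3 in the mPFC (CPM) of each mouse by condition and set, with mean and SD in black. Right, log2 fold changes of the 9 genes with 95% intervals for counts of the 6 regions summed, for the 3 comparisons of conditions and for social interaction against none, where the intervals of Uhrf1 and Dnmt3b are the widest.

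Social interaction was compared with no interaction over the 3 conditions. Tet3 in the mPFC was the only member called in the 6 regions, and 4 of 54 member tests had an unadjusted p under 0.05, or 7.4%, where 13.2% of all gene tests did. It lay at 69.3, 74.95 and 85.9 CPM in the 21 mice without interaction and at 72.1, 81.4 and 99.99 CPM in the 20 mice with it. The groups overlapped, with 18 of 20 mice above the median of the others and 6 above their highest value. The log2 fold change was 0.12 ± 0.034 with an adjusted p of 0.0268 (edgeR), where 4.81% of all genes were higher and 7.4% changed in either direction. Medians were higher with interaction in each condition, at 73.3 and 77.8 CPM in Ctrl_Veh, 76.0 and 85.02 in ELA_Veh and 72.8 and 76.4 in ELA_SAFit2.

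The call was narrow. DESeq2 gave an adjusted p of 0.0171, and the fit without the 8 mPFC libraries high in olfactory bulb markers 0.0264. With no filter on low counts or on gene type, which also let in genes that are not protein-coding, it was 0.0925. Leaving out each mouse in turn kept the call in 39 of 41 fits, and it was lost without mouse 81 (adjusted p = 0.0518) or mouse 87 (0.0502). In the other regions Tet3 had differences of 0.072 in the vHipp (adjusted p = 0.274), 0.047 (ACC), 0.043 (BLA), 0.021 (Nacc) and -0.016 (DMT), and the difference between regions was not tested. No member was called there by edgeR or DESeq2, where 4.15% of all genes were called for the ACC, 0.0% for the Nacc (2.46% at an unadjusted p under 0.05), 1.49% for the BLA, 1.6% for the DMT and 1.21% for the vHipp. In the Nacc 12 libraries matched another mouse than their label's, so the set given for them may be wrong. Without them no member was called in the Nacc either. With regions summed, where 8.56% of all genes were called, Tet3 was at 0.049 ± 0.020 (adjusted p = 0.121). In the same summed counts Dnmt1 (-0.030), Tet1 (-0.051) and Dnmt3b (-0.10) also had an unadjusted p under 0.05, lower with interaction, and adjusted p between 0.177 and 0.186, and 22.4% of all genes had such an unadjusted p. Without mouse 89, whose ACC library was low in long genes, Tet3 was called in the summed counts at 0.059 (adjusted p = 0.0378).

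Of the 10 genes of demethylation by base excision, 2 were called in the mPFC after social interaction, both higher. Of all genes 4.81% were higher there and 7.4% changed in either direction. The median was 0.10 over the list and -0.0023 over all genes. Like the other lists, this one was chosen with earlier results of these data known. Gadd45b, an activity-induced gene linked to demethylation, rose from 4.96, 6.47 and 11.6 CPM to 5.95, 8.82 and 13.1 CPM (0.37 ± 0.092, adjusted p = 0.00832). Tdg, the glycosylase that removes oxidised methylcytosine made by TET enzymes, rose from 16.5, 18.6 and 20.2 CPM to 17.6, 20.4 and 23 CPM (0.13 ± 0.029, adjusted p = 0.0032). Gadd45b was also higher in the ACC (0.28 ± 0.073, adjusted p = 0.0224), where 4.15% of all genes were called in either direction. None of the 9 other readers, the 8 partners of the TET enzymes, the 8 partners of methylation, the 8 genes of methyl donor synthesis or the 16 corepressors was called in the mPFC.

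Other markers moved in the same mPFC libraries. The precursor marker Cspg4 was at 0.21 ± 0.049 (adjusted p = 0.00552), 1 of 4 in its list, whose sum was 134 to 178 CPM without interaction and 131 to 181 with it. Mcm6 was at -0.23 ± 0.064 (adjusted p = 0.019), 1 of 8 markers of dividing cells, whose sum was 19.4 to 52.4 CPM without interaction and 19.9 to 53.4 with it. The index of long genes had medians of -0.0032 and 0.0064 in the 2 sets and ranges of -0.058 to 0.029 and -0.058 to 0.107. The part of these in the difference of Tet3 was not tested.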

How the data were processed

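Libraries were made from poly-A selected RNA with a stranded kit. The authors quantified reads with salmon, and what they deposited is a gene-level table of estimated counts. The submitters' processing notes name STAR, DESeq2 and GRCm39 (mm39), and versions and annotation release are not given in the sources used here. Of the values 12.12% were not whole, and all were rounded. Identifiers were matched without version to GENCODE M21 on GRCm38 (52073 of 56691), 978 got their gene type by RefSeq symbol and 3640 remained untyped. Tests covered protein-coding genes whose counts summed to 100 or more, with reads in 6 or more libraries.

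Tests were edgeR 4.0.16 quasi-likelihood tests (TMM, Benjamini-Hochberg over all genes tested, threshold 0.05) in R 4.3.3, with DESeq2 1.42.0 as the alternative. Regions were compared in 1 fit over 246 libraries with the mouse as a replicate block, because the labels give the 6 punches of a mouse the same number. Conditions were compared in each region and on counts summed per mouse as labelled. Intervals are 1.96 SE either way. Levels (CPM) are counts scaled to TMM-adjusted library size. The E2F-type motif, the markers and the lists are textbook choices, and members and lists were chosen with earlier results of these data known. Members were all named, with at most 3 genes per list, from those called with the largest change. Steps were tested on simulated counts with the same spread for every gene and no differences between mice. There 50.7% of 1.25-fold changes and 88.1% of 1.5-fold changes were recovered for ELA_Veh against Ctrl_Veh in the mPFC. Low-long, olfactory and mPFC leave-one-out alternatives, the coding transcript length, the marker sum without Mcm6 and the mouse counts without mismatched Nacc libraries were added after the data were seen. Tables were handled with pandas 2.3.3 and numpy 2.4.6. Mbd1 and Mbd2 windows were not used here.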

Additional observations from a re-analysis of the deposited data

Results flagged for a closer look

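The members' values per condition and set, as means of the 6 regions of a mouse and for Tet3 in the mPFC, were searched for a mouse far from the others of its group by Dixon's test. It marked 7 of 60 groups, where chance marks about 1 in 20, and in each the marked mouse was the highest of its group. Uhrf1 accounts for 3 of them. Ctrl_Veh mouse 17 (social interaction) was at 1.541 CPM where the other mice lay between 0.8494 and 1.098, an ELA_SAFit2 mouse without interaction at 1.659 CPM (0.8688 to 1.174) and ELA_Veh mouse 61 (social interaction) at 1.872 CPM (0.7838 to 1.163). The mPFC libraries of the same 3 mice had, in this order, sums of the markers of dividing cells of 47.9, 52.4 and 53.4 CPM, where the mPFC median was 23.7.

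Dnmt3a was at 152.4 CPM in ELA_SAFit2 mouse 15 (no interaction; 139.9 to 144.7 in the others). Dnmt3b was at 1.0 CPM in an ELA_Veh mouse (social interaction; 0.8777 to 0.9205). In the same mouse Tet3 in the mPFC was at 96.62 CPM (79.71 to 86.26). Mbd2 was at 34.2 CPM in ELA_SAFit2 mouse 31 (social interaction; 31.47 to 32.52), whose DMT library is 1 of the 4 low in long genes. Causes were not tested.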

How the results depend on the processing

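Counts of members called in each region stayed within 1.5 times under all 6 alternatives, and no difference reversed. Without the replicate block of the mouse, the members called were 7 (mPFC), 8 (ACC), 9 (Nacc), 6 (BLA), 5 (DMT) and 8 (vHipp), where the paired fit called 7, 7, 9, 7, 5 and 9, and Uhrf1 in the mPFC was at 0.47 in place of 0.37. The comparisons of conditions called 0 members in all 318 refits within regions. For social interaction in the mPFC, no filter on low counts or on gene type gave 0 members called in place of 1. Leaving out each mouse gave 0 to 1 there. With regions summed, leaving out each mouse gave 0 to 1. Of the log2 fold changes of called members 294 refits kept their call and 15 lost it, all of Tet3, Mbd1 (BLA) and Uhrf1 (BLA, Nacc, vHipp). The cause was not tested. Counting error limits Dnmt3b and Uhrf1, and p-values measure spread between mice whose litters are not given here.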
